A study of Drosophila melanogaster with 4 samples.

Results

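The Niemann-Pick sterol transport genes of Drosophila melanogaster comprise 2 Npc1 genes, Npc1a and Npc1b, and 8 Npc2 genes, Npc2a to Npc2h. They were taken by FlyBase symbol from a gut RNA-seq count table of 17807 genes. All 10 were in the table, and all 10 passed the filter on low counts that left 10795 genes for testing. The rule for membership used no measured value, although the family was chosen with earlier results of these data known.

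NPC1 is a large membrane protein of late endosomes and lysosomes with a sterol-sensing domain, and NPC2 is a small soluble protein of their lumen that binds sterol and hands it to NPC1. Loss of either gene in humans causes Niemann-Pick disease type C, in which sterol accumulates in lysosomes. Insects cannot make sterols and take them from food, both for membranes and as the starting material of the moulting hormone ecdysone. In the fly, Npc1b serves sterol absorption by the midgut epithelium, whereas Npc1a acts in sterol trafficking inside many cell types.

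The libraries were made from pools of 20 to 30 guts of adult females at 7 days, raised on cornmeal, agar and yeast food. The control, WT, was the yw strain, and the mutant was homozygous for wh7, an allele of dwdr4, the fly gene for the WD40 protein Wdr4 that FlyBase lists as wuho. There were 2 libraries of each genotype, 4 in all. The wh7/wh7 females came from a cross of wh7/Y; dwdr4-gfp/+ fathers with wh7/FM7c mothers and carried no rescue transgene. The genotypes therefore differ in stock and cross as well as in dwdr4, and these cannot be told apart. The comparison asks how the gut transcripts of this family differ between wh7 and WT females.

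The libraries held 93603837 to 101610356 counts over all genes. Transcripts of wuho had 1489 and 1256 counts in the WT libraries and 2 and 3 counts in the wh7 libraries, which is the order the labels give. The enterocyte marker Myo31DF stood at 531 to 586 CPM, the usual unit of counts scaled to the normalised library total, in all 4 libraries. The enterocyte markers as a list moved both ways. Of 14 tested, 9 lay lower in wh7 and 5 higher. Without overlap between genotypes, 5 were lower and 4 higher, against 22.9% and 23.8% of all genes tested. Enteroendocrine genes lay lower in wh7 in 13 of 13 tested, with summed levels of 561 to 599 CPM in WT and 332 to 339 CPM in wh7. Fat body genes lay lower in 8 of 11, with summed levels of 8503 and 13865 CPM in WT 1 and WT 2, 5489 and 5461 CPM in wh7 1 and wh7 2. Past the threshold, an adjusted p of 0.05 in edgeR's quasi-likelihood test, were 2 enteroendocrine genes and 1 fat body gene, against 0.482% of all genes tested. Copper cell markers lay higher in wh7 in 6 of 6 tested, and visceral muscle markers lower in 10 of 12, with 0 of the 12 free of overlap. No fat body gene tested was at 0 in both libraries of a genotype. Of the 8 Npc2 genes, 6 lay lower in wh7, against 52.6% of all genes tested. Hindgut, crop and trachea genes lay lower in wh7 in 6 of 6 tested, none past the threshold, with summed levels of 244 to 282 CPM in WT and 193 to 199.97 CPM in wh7. The part of cell makeup in any Npc value was not tested.

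Levels of different genes were compared per length, as CPM divided by the exonic length in kilobases (CPM per kb). Npc2d was the most abundant transcript of the family, at a mean of 304 CPM per kb in WT and 328 in wh7. Npc2f followed with 115 and 186 CPM per kb, then Npc1b with 99.9 and 94.2, and then Npc2a with 67.2 and 63.9. Npc2d lay above every other member in each of the 4 libraries, and Npc2h below all of them except in wh7 1, where Npc2c was lower. In WT the neighbours between these ends overlapped in their library values, so that only the places of Npc2d and Npc2h were set apart from the next gene. In wh7 the order Npc2d, Npc2f, Npc1b, Npc2a was free of overlap, and Npc2c and Npc2e overlapped below it.

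The lower part of the order was made up of Npc2e (65.0 CPM per kb in WT, 23.5 in wh7), Npc2c (54.0 and 26.6), Npc2g (25.3 and 13.0), Npc1a (18.8 and 16.4), Npc2b (18.5 and 14.5) and Npc2h (6.32 and 3.44). The 2 Npc1 genes differed by a ratio that varied between libraries. Npc1b exceeded Npc1a per length by 3.33-fold in WT 1, 6.82-fold in WT 2, 6.70-fold in wh7 1 and 4.89-fold in wh7 2.

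**Figure D1:**
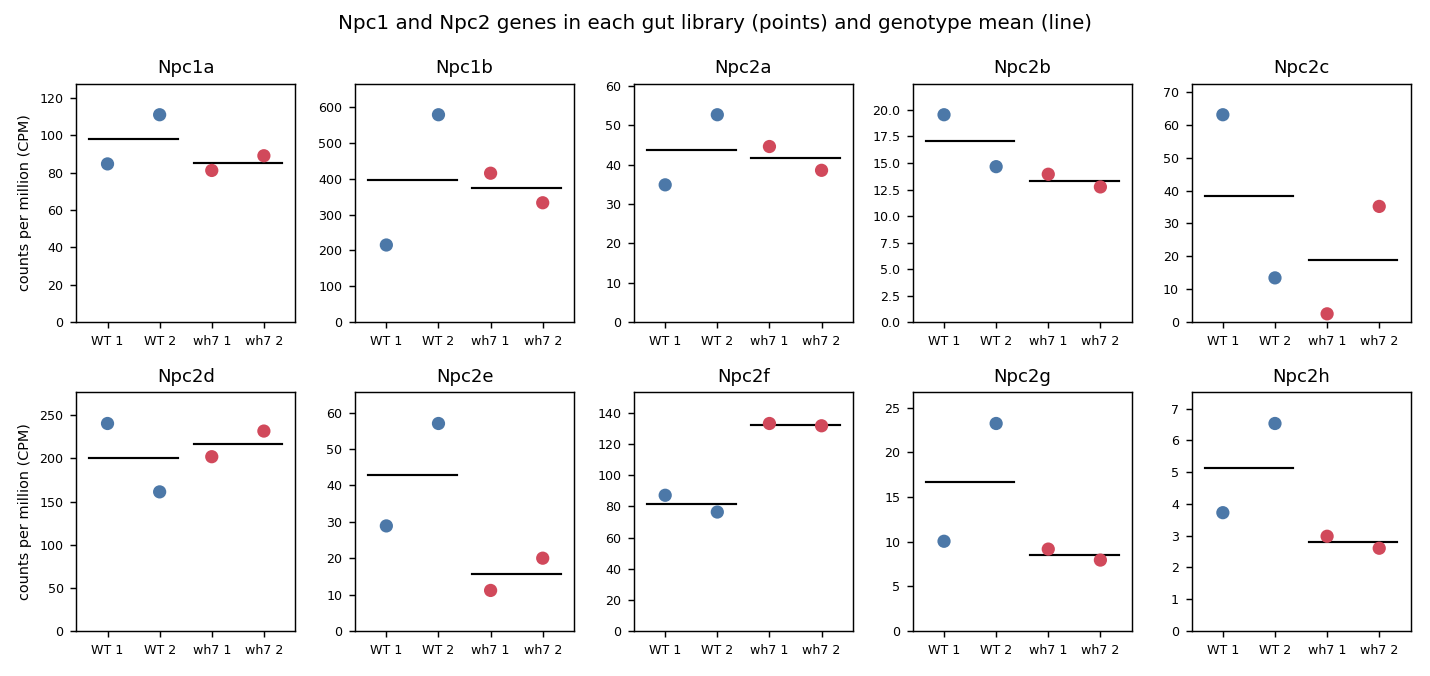
Each panel plots 1 Npc gene as normalised CPM (y axis, from 0) in the 4 gut libraries (x axis), with points for libraries and a line for the genotype mean. Both wh7 points of Npc2f (133 and 132 CPM) lie above both WT points (87.2 and 76.4 CPM), whereas Npc1b and Npc2c spread widely within a genotype.

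None of the 10 Npc genes passed an adjusted p of 0.05 in edgeR's quasi-likelihood test, against 0.482% of all genes tested (52 of 10795). The lowest adjusted p in the family was 0.143, that of Npc2f. At an unadjusted p under 0.05 there were 2 members, Npc2f with more and Npc2e with fewer transcripts in wh7, against 14.5% of all genes. DESeq2, run as another tool, put the same genes, Npc2e and Npc2f, past its adjusted threshold and no other member, against 7.96% of all genes (859 of 10795). Fitted changes were below 0 for 8 members and above 0 for 2, and their median was -0.28 on the log2 scale. Over all genes tested the median was -0.02, and 52.6% were below 0. The Npc2 genes had a median of -0.62 and the Npc1 genes one of -0.14. In whole guts, fewer cells of a type and less RNA per cell cannot be told apart in any of these values.

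Without overlap between genotypes, 4 members lay lower in both wh7 libraries (Npc2b, Npc2e, Npc2g and Npc2h), against 22.9% of all genes tested. The only member with both wh7 libraries above both WT libraries was Npc2f, against 23.8% of all genes. The other 5 members overlapped. The smallest two-sided p that exact permutation of 2 and 2 libraries allows for a single gene is 0.33.

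**Figure D2:**
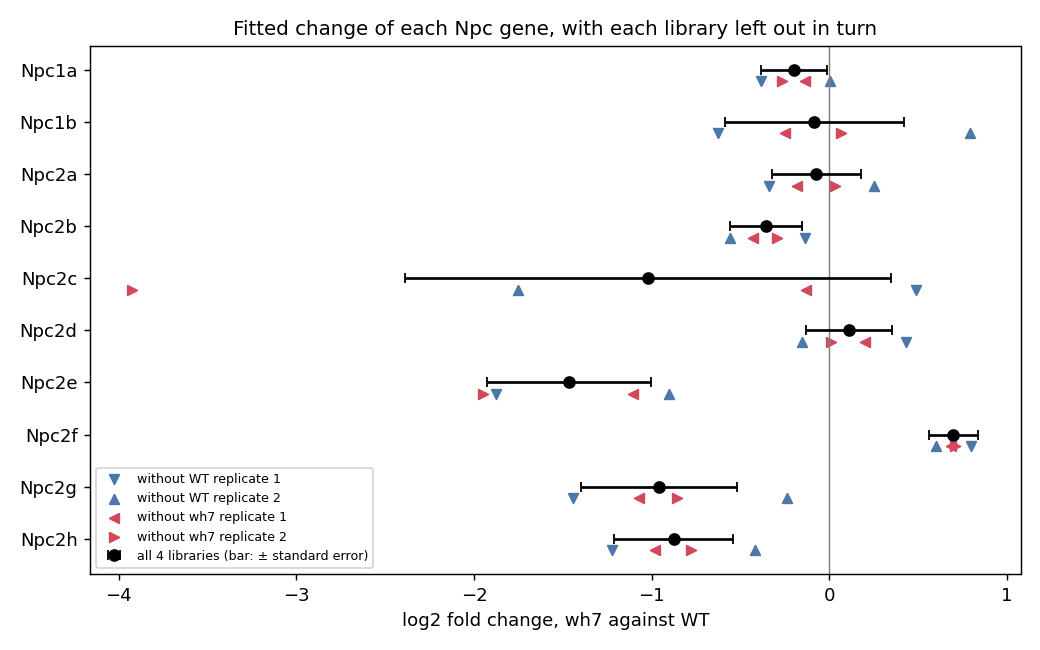
Log2 fold change of wh7 against WT (x axis) for each Npc gene (y axis), with black points for the fit of all 4 libraries, bars of 1 standard error, and small symbols for fits with 1 library left out. Npc2f stays between 0.60 and 0.80 in every such fit, whereas Npc2c runs from -3.92 to 0.49.

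Npc2f (FBgn0039154, chromosome arm 3R), one of the secreted-type NPC2 proteins, was the member that separated the genotypes most evenly. It stood at 87.2 CPM in WT 1, 76.4 CPM in WT 2, 133 CPM in wh7 1 and 132 CPM in wh7 2. Both wh7 libraries lay above both WT libraries, and libraries of 1 genotype lay close together. The WT mean was 81.8 ± 7.63 CPM and the wh7 mean 133 ± 1.04 CPM (SD, n = 2 each). The fitted difference was 1.62-fold (log2 fold change 0.70 ± 0.14 SE, unadjusted p = 0.00595, adjusted p = 0.143, edgeR's quasi-likelihood test). Its rank was 447 of 10795 genes by p.

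The WT libraries of Npc2f differed by 1.14-fold and the wh7 libraries by 1.01-fold, at percentiles 33.4 and 6.7 of such differences over 9380 genes with a mean of at least 50 normalised counts. Leaving out WT 1 placed Npc2f past the threshold (log2 fold change 0.80, adjusted p = 0.0473, against 3.61% of 11104 genes tested), and DESeq2 did as well (adjusted p = 0.00566). Of its annotated neighbours, Sec10, a subunit of the exocyst, had 33.0 to 34.3 CPM over the 4 libraries and a log2 fold change of 0.03 (adjusted p = 0.951). Kal1, the fly relative of the human Kallmann syndrome gene, had 6.005 CPM in WT 1, 1.30 CPM in WT 2, 0.976 CPM in wh7 1 and 2.80 CPM in wh7 2. Its genotypes overlapped, and its log2 fold change was -0.95 ± 0.90 SE (adjusted p = 0.705). Copper cell markers lay higher in wh7 in 6 of 6 tested genes, none past the threshold. Of the 6, 4 were higher without overlap, against 23.8% of all genes tested. The summed level of the copper cell markers was 736 and 612 CPM in WT against 1004 and 1024 CPM in wh7. CG13720, also listed, was at 0 in all 4 libraries. The part of these markers in Npc2f was not tested.

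Npc2e (FBgn0051410, 3R), whose protein has been reported to bind bacterial cell wall components besides sterol, had the lowest log2 fold change of the family. It had 28.9 CPM in WT 1, 57.0 CPM in WT 2, 11.1 CPM in wh7 1 and 20.0 CPM in wh7 2. Both wh7 libraries were below both WT libraries, although within each genotype 1 library was well above the other, by 1.98-fold in WT and 1.80-fold in wh7. Such a gap is wide for these data, at percentile 88.6 of genes in WT and 95.3 in wh7. The fitted level was 2.76-fold lower in wh7 (log2 fold change -1.46 ± 0.46 SE, unadjusted p = 0.0301, adjusted p = 0.279, edgeR's quasi-likelihood test). DESeq2 gave it an adjusted p of 0.0247. Npc2e and Npc2g are also among the genes the study itself displayed from these libraries, so their direction here is not independent of that choice.

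The Npc2e locus holds a second gene that bears on this value. In the BDGP6.54 annotation the antisense RNA gene asRNA:CR44192, on the opposite strand, covers 611 of the 661 exonic bases of Npc2e (92.4%). It was given more counts than Npc2e in every library, with 6619 in WT 1, 6181 in WT 2, 8256 in wh7 1 and 10884 in wh7 2, where Npc2e had 2822, 5142, 1037 and 2058. The antisense gene was thus higher in both wh7 libraries, opposite to Npc2e (log2 fold change 0.51 ± 0.15 SE, adjusted p = 0.254, edgeR's quasi-likelihood test). Whether the authors' counting used strand is not given in the sources used here, and without strand the reads of an overlapping sense and antisense pair cannot be told apart.

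Summing both genes, an alternative chosen after seeing the data, gave 9441, 11323, 9293 and 12942 counts in WT 1, WT 2, wh7 1 and wh7 2. The summed locus overlapped between genotypes and had a log2 fold change of 0.02 ± 0.21 SE (adjusted p = 0.981). That sum also holds the more abundant antisense gene, so it does not show whether Npc2e itself differed. Fancl, a ubiquitin ligase gene of the Fanconi anaemia pathway that lies beside Npc2e on the strand of the antisense gene, had 5078, 4852, 6468 and 8735 counts. Its log2 fold change was 0.54 ± 0.16 SE (adjusted p = 0.254), and the antisense gene stood at 1.25 to 1.30 times the Fancl count in all 4 libraries. The antisense gene and Fancl share 24 exonic bases on the same strand. The part of that overlap in either count was not tested.

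**Figure D3:**
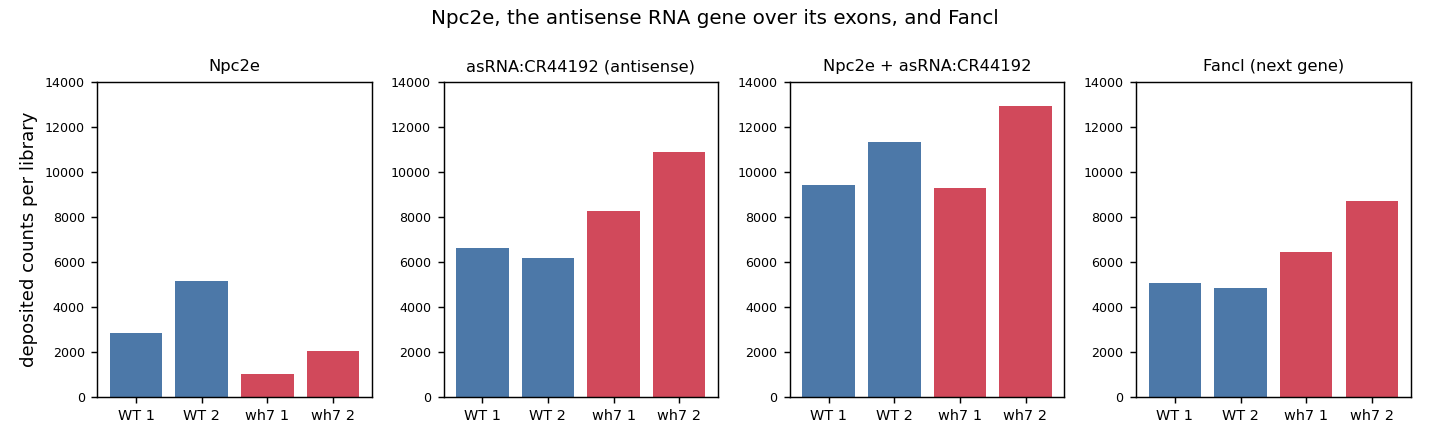
Deposited counts per library (y axis, from 0) for Npc2e, the antisense RNA gene over its exons, their sum and Fancl in the 4 gut libraries (x axis). Npc2e is lower in both wh7 libraries, the antisense gene and Fancl are higher in both, and the sum (9293 to 12942) overlaps between genotypes.

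Npc2d (FBgn0037782, 3R) and Npc2c (FBgn0037783, 3R) are the next protein-coding genes after Npc2e along the chromosome. These 3 Npc2 genes thus form a run, with noncoding genes left out of account. Npc2d had 241 CPM in WT 1, 161 CPM in WT 2, 202 CPM in wh7 1 and 232 CPM in wh7 2. The genotypes overlapped, with WT 1 highest and WT 2 lowest, and the log2 fold change was 0.11 ± 0.24 SE (adjusted p = 0.882, edgeR's quasi-likelihood test). Without WT 2 the estimate was -0.16.

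Npc2c had the widest spread within genotypes of any member. It had 63.1 CPM in WT 1, 13.5 CPM in WT 2, 2.52 CPM in wh7 1 and 35.2 CPM in wh7 2. The WT libraries differed by 4.68-fold and the wh7 libraries by 13.9-fold, at percentiles 98.7 and 99.8 of all genes compared, and the genotypes overlapped. Its log2 fold change of -1.02 ± 1.37 SE (adjusted p = 0.799) became 0.49 without WT 1 and -3.92 without wh7 2. An antisense gene, asRNA:CR45205, covers 58.5% of the exonic bases of Npc2c but had 0 to 27 counts, and the summed locus had the same adjusted p of 0.799. The 3 genes of the run therefore had different profiles over the 4 libraries: Npc2e was highest in WT 2, and Npc2c and Npc2d were highest in WT 1.

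Npc2g (FBgn0039800) and Npc2h (FBgn0039801) lie side by side on 3R. The protein of Npc2h has also been reported to bind bacterial cell wall components. Npc2g had 10.05 CPM in WT 1, 23.3 CPM in WT 2, 9.17 CPM in wh7 1 and 7.94 CPM in wh7 2. Both wh7 libraries were below both WT libraries, but WT 1 was close to them and WT 2 far above. The fitted level was 1.95-fold lower in wh7 (log2 fold change -0.96 ± 0.44 SE, adjusted p = 0.432, edgeR's quasi-likelihood test). Without WT 2 the log2 fold change was -0.24, and without WT 1 it was -1.44.

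Npc2h had 3.72 CPM in WT 1, 6.53 CPM in WT 2, 2.98 CPM in wh7 1 and 2.60 CPM in wh7 2. The arrangement of its libraries was that of Npc2g, with WT 2 highest and both wh7 libraries lowest. Its fitted level was 1.84-fold lower in wh7 (log2 fold change -0.88 ± 0.34 SE, adjusted p = 0.356), and leaving out single libraries gave -1.23 to -0.42. Its counts were 268 to 589 per library. Reads of near-identical paralogues may be split between family members by the counting, and how alike their sequences are was not analysed here.

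Npc2b (FBgn0038198, 3R), which acts with Npc2a in fly sterol balance, had 19.5 CPM in WT 1, 14.7 CPM in WT 2, 13.9 CPM in wh7 1 and 12.7 CPM in wh7 2. Both wh7 libraries were below both WT libraries by a small margin. The log2 fold change was -0.36 ± 0.20 SE (adjusted p = 0.522, edgeR's quasi-likelihood test), and -0.14 without WT 1. CCHa1, a gut peptide hormone gene next to Npc2b, had 26.5 and 19.4 CPM in WT against 10.3 and 10.5 CPM in wh7 (log2 fold change -1.14 ± 0.21 SE, adjusted p = 0.127). On the other side, foxo, the transcription factor of insulin signalling, had a log2 fold change of 0.29 (adjusted p = 0.442).

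Npc2a (FBgn0031381, 2L), the family member closest to vertebrate NPC2, had 34.9 CPM in WT 1, 52.7 CPM in WT 2, 44.6 CPM in wh7 1 and 38.6 CPM in wh7 2. Both wh7 libraries lay between the WT libraries. The log2 fold change was -0.07 ± 0.25 SE (adjusted p = 0.93, edgeR's quasi-likelihood test), and it was 0.25 without WT 2 and 0.03 without wh7 2. Its neighbour Got2, an aspartate aminotransferase gene, had overlapping genotypes and a log2 fold change of 0.04 (adjusted p = 0.963).

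Npc1b (FBgn0261675, X), the absorptive gene of the midgut, had 215 CPM in WT 1, 578 CPM in WT 2, 415 CPM in wh7 1 and 333 CPM in wh7 2. The WT libraries enclosed both wh7 libraries and differed by 2.69-fold, at percentile 95.2 of genes, where the wh7 libraries differed by 1.25-fold. The log2 fold change was -0.08 ± 0.50 SE (adjusted p = 0.963, edgeR's quasi-likelihood test). It was 0.79 without WT 2 (adjusted p = 0.0759), 0.07 without wh7 2 and -0.63 without WT 1, so no direction can be given. Ser6, a serine protease gene 23101 bases from Npc1b, had 280 and 166 CPM in WT against 78.1 and 64.5 CPM in wh7 (log2 fold change -1.65 ± 0.30 SE, adjusted p = 0.128). CG11227, 1309 bases away on the other side, had 0.338 and 0.765 CPM in WT against 1.55 and 0.515 CPM in wh7. Its genotypes overlapped (log2 fold change 0.91 ± 0.73 SE, adjusted p = 0.657). The summed level of the 14 enterocyte markers was 56432 CPM in WT 1 and 74628 to 80129 CPM in the other libraries. A large part of that sum was the amylase gene Amy-p, with 10512 CPM in WT 1 and 28857 CPM in wh7 1. The markers did not share an order of libraries, and Myo31DF was highest in WT 1, at 586 CPM. The part of these markers in Npc1b was not tested.

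Npc1a (FBgn0024320, 2L), the broadly used membrane transporter, had 84.6 CPM in WT 1, 111 CPM in WT 2, 81.1 CPM in wh7 1 and 89.0 CPM in wh7 2. WT 2 was highest and the other libraries lay together. The log2 fold change was -0.20 ± 0.19 SE (adjusted p = 0.697, edgeR's quasi-likelihood test), and it was 0.00046 without WT 2. The genes on either side, ath, a helicase gene, and Prosalpha6, a proteasome subunit, had log2 fold changes of -0.22 (adjusted p = 0.691) and 0.14 (adjusted p = 0.753).

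The spread between the WT libraries recurred across the family. Between WT 2 and WT 1, 6 members were higher and 4 lower, and 3 differed by over 2-fold (Npc1b, Npc2c and Npc2g), beside 10.9% of the 9380 genes compared. Between the wh7 libraries only Npc2c differed by over 2-fold, beside 3.23% of genes. Over all genes the median absolute log2 difference was 0.31 between the WT libraries and 0.14 between the wh7 libraries.

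**Figure D4:**
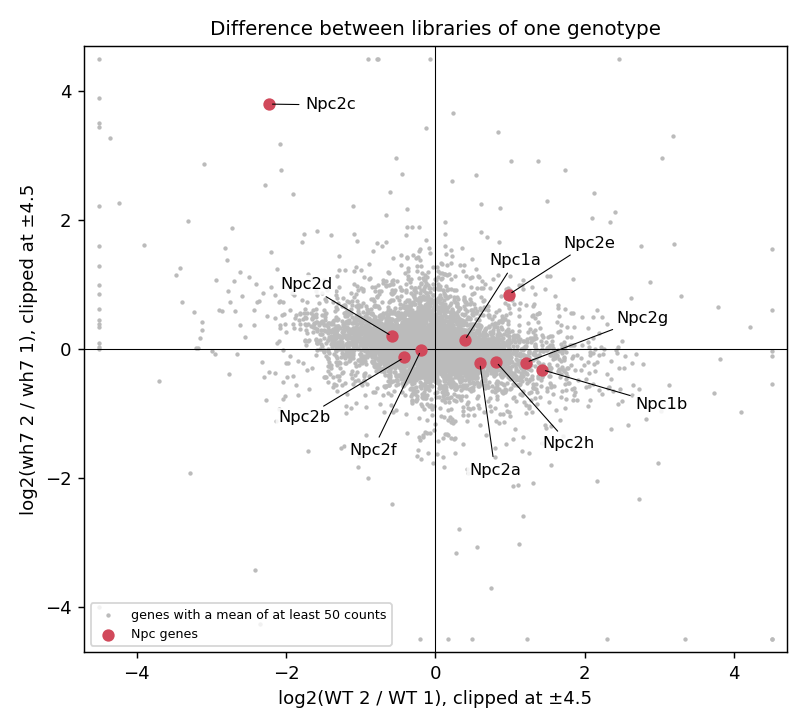
Log2 ratio of WT 2 over WT 1 (x axis) against log2 ratio of wh7 2 over wh7 1 (y axis) for 9380 genes (grey) and the Npc genes (red). Npc2c lies far from the rest at -2.23 and 3.80, Npc1b lies at 1.43 and -0.32, and Npc2f is near the centre at -0.19 and -0.02.

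The makeup of the Npc2 transcripts was computed as the percentage of the summed CPM per kb. The sum was 714 CPM per kb in WT 1, 597 in WT 2, 615 in wh7 1 and 704 in wh7 2, with overlapping genotypes. Npc2d made up 51.0% of it in WT 1, 40.9% in WT 2, 49.7% in wh7 1 and 49.8% in wh7 2. The Npc2f share was 17.2% and 18.0% in WT against 30.5% and 26.3% in wh7. The Npc2e share was 6.12% and 14.5% in WT against 2.74% and 4.30% in wh7, and it carries the strand limit given for that gene. Npc2f was thus the second Npc2 transcript in each library, with a larger share in both wh7 libraries.

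Beside the family stood 21 other genes listed for sterol and lipoprotein handling, all of them tested. In wh7, 12 had fitted changes above 0 and 9 below, with a median log2 fold change of 0.07, and none passed an adjusted p of 0.05 in edgeR's quasi-likelihood test. At an unadjusted p under 0.05 there were 3, namely mag and pst above and Apoltp below, against 14.5% of all genes tested. Magro (mag), a gut lipase and sterol esterase that acts on dietary lipid, had 736 CPM in WT 1, 794 CPM in WT 2, 1219 CPM in wh7 1 and 1191 CPM in wh7 2. Both wh7 libraries were above both WT libraries, as for Npc2f, with a log2 fold change of 0.66 ± 0.14 SE (adjusted p = 0.157).

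The symbol pst (FBgn0035770, 3L) is that of pastrel, not of the scavenger receptor peste. Its place in the list rests on the symbol alone, and it is included in the counts and median above. It had 857 and 1347 CPM in WT against 2481 and 2193 CPM in wh7 (log2 fold change 1.09 ± 0.27 SE, adjusted p = 0.196). NinaD, a scavenger receptor that takes up dietary carotenoids, had 154 CPM in WT 1 and 17.7 CPM in WT 2 against 247 and 304 CPM in wh7 (log2 fold change 1.68 ± 1.01 SE, adjusted p = 0.548). The related receptors santa-maria and crq overlapped between genotypes, at 0.21 and 0.13. Hr96, a nuclear receptor that binds sterol and controls Npc1b and mag in flies, had 57.1 and 75.0 CPM in WT and 76.1 and 67.0 CPM in wh7. Its genotypes overlapped (log2 fold change 0.12, adjusted p = 0.842).

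The carriers that take lipid from the gut into the haemolymph lay on the other side of 0. Apolpp, the main lipophorin, had 1002 and 1751 CPM in WT against 970 and 642 CPM in wh7 (log2 fold change -0.77 ± 0.36 SE, adjusted p = 0.444). Apoltp, the lipid transfer particle that loads lipophorin, had 83.2 and 83.8 CPM in WT against 34.1 and 54.0 CPM in wh7 (-0.92 ± 0.26 SE, adjusted p = 0.235). Both are also fat body markers and are counted in the fat body list described above. Mtp, which assembles these particles, had a log2 fold change of -0.22 (adjusted p = 0.652).

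Among the regulators, SREBP, the lipid-responsive transcription factor, had a log2 fold change of 0.29 (adjusted p = 0.574). The remaining genes had log2 fold changes of -0.14 to 0.18. Among them were the SREBP partners SCAP (0.08), S1P (-0.14) and S2P (-0.11) and the lipophorin receptors LpR1 (0.07) and LpR2 (-0.11). The oxysterol-binding protein genes were Osbp (0.05), Orp8 (-0.07), CG1513 (0.18) and CG3860 (-0.13). The lipid-binding Start1 stood at 0.16, and CG8112, whose function is not described here, at -0.14. LpR2 showed the WT spread of Npc1b, at 62.9 CPM in WT 1 and 201 CPM in WT 2.

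**Figure D5:**
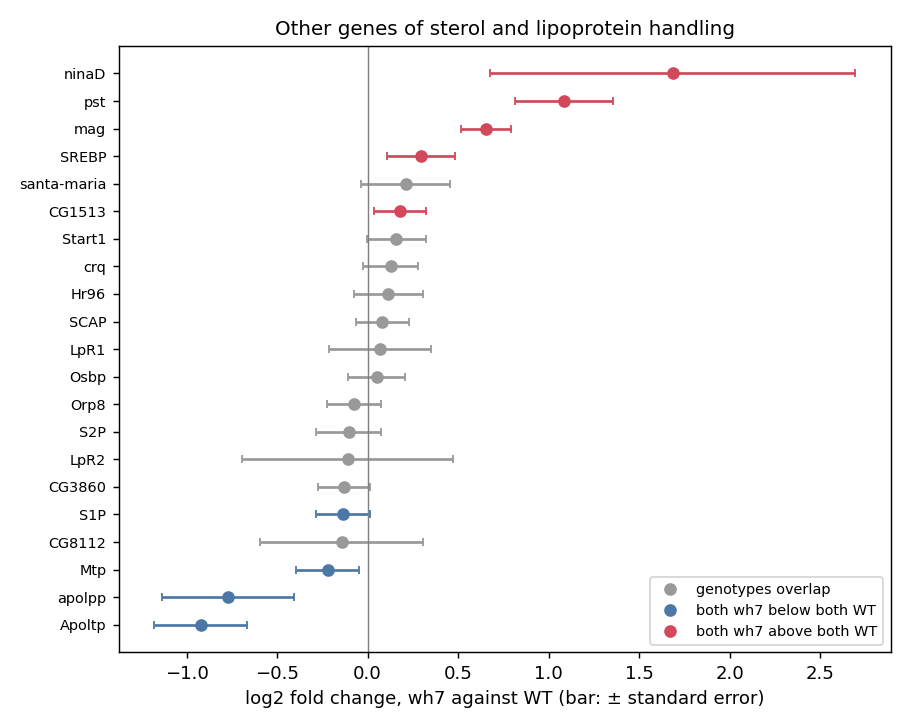
Log2 fold change of wh7 against WT (x axis, bars of 1 standard error) for 21 other genes listed for sterol and lipoprotein handling (y axis). Points are coloured by whether the genotypes overlap. Pst (1.09) and mag (0.66) lie above 0 and Apoltp (-0.92) and apolpp (-0.77) below 0 without overlap, and ninaD (1.68) has the widest bar.

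Lists of related function gave the wider setting. Of 33 lysosomal genes tested, 18 had changes above 0 and 15 below, with a median of 0.02 on the log2 scale. None passed an adjusted p of 0.05 in edgeR's quasi-likelihood test. At an unadjusted p under 0.05 there were 7, against 14.5% of all genes tested. The highest were Ect3, a beta-galactosidase gene (1.91 ± 0.49 SE, adjusted p = 0.209), and Lip1, a lipase gene (1.73 ± 1.59 SE, adjusted p = 0.697). The lowest were Lip4, another lipase gene (-1.29 ± 0.28 SE, adjusted p = 0.161), and Cln7, a lysosomal membrane protein gene (-1.0 ± 0.20 SE, adjusted p = 0.141). Of 4 other genes with a sterol-sensing domain, 2 lay above 0 and 2 below, with a median of -0.04 and none at an unadjusted p under 0.05.

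Of 19 ecdysone synthesis and response genes tested, 13 lay above 0 and 6 below, with a median log2 fold change of 0.17. None passed the adjusted threshold and 7 had an unadjusted p under 0.05, against 14.5% of all genes tested. ImpL2, an ecdysone-inducible gene whose product binds insulin-like peptides, had 105.5 and 110 CPM in WT against 36.7 and 42.8 CPM in wh7 (-1.44 ± 0.15 SE, adjusted p = 0.0625, edgeR's quasi-likelihood test). ImpE1, another ecdysone-inducible gene, stood at -3.36 ± 0.88 SE (adjusted p = 0.213) with under 4 CPM in each library. At the other end were br, an ecdysone-induced transcription factor (0.62, adjusted p = 0.649), and Oatp74D, the ecdysone importer (0.51, adjusted p = 0.247).

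Of 21 genes of gut lipid digestion and storage tested, mag among them, 14 lay above 0 and 7 below, with a median log2 fold change of 0.04. None passed the adjusted threshold and 3 had an unadjusted p under 0.05, against 14.5% of all genes tested. The highest were the lipase-family genes CG6277 (1.96 ± 0.79 SE, adjusted p = 0.376) and CG6271 (1.14 ± 0.75 SE, adjusted p = 0.585). The lowest were Lsd-2, a lipid droplet coat protein gene (-0.48 ± 0.16 SE, adjusted p = 0.304), and Dgat2, a triglyceride synthesis gene (-0.39 ± 0.52 SE, adjusted p = 0.797).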

How the data were processed

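RNA of 4 gut libraries was made into mRNA libraries with the SureSelect XT HS2 kit. Per the labels, the submitters' tools were Trimmomatic 0.36, HISAT2, StringTie 2.1.4, DESeq and DESeq2. The genome build, annotation and use of strand are not given in the sources used here, so no coordinates are printed. The authors deposited raw counts per gene, whole numbers without normalization. Their second table, of log2 fold changes, p-values and normalized counts from their own comparison, was not used.

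Of 17807 FlyBase IDs, 17710 matched a symbol and 97 did not. Exonic lengths, strands and neighbours came from the BDGP6.54 annotation, with neighbours taken among protein-coding genes of the count table. Counts were tested with edgeR 4.0.16 in R 4.3.3 (TMM, filterByExpr, quasi-likelihood test, Benjamini-Hochberg adjustment over 10795 genes, threshold 0.05), after the script was checked on simulated data. Standard errors were derived from each gene's F statistic. CPM are TMM-normalised. Nothing in the labels says that the pools came from separate cultures, so p-values measure only the spread between these pools. Every member had at least 235 counts in each library.

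Named genes were the members, wuho, the 21 genes listed for sterol handling and some of the members' nearest neighbours. Of each other list of function, they were the 2 highest and 2 lowest changes among genes with a mean of at least 50 normalised counts. Cell type markers are given as summed levels, apart from Myo31DF, CG13720 and Amy-p, the last named after its values were seen. Lists were written from general knowledge, and 10 list symbols were found under another symbol; 1 listed gene is not reported here. Members and lists were chosen with earlier results of these data known. Alternatives were DESeq2 size factors in edgeR, upper-quartile scaling, no filter, at least 50 counts in 2 libraries, DESeq2 1.42.0, a replicate block and each library left out.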

Additional observations from a re-analysis of the deposited data

How the results depend on the processing

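Over all genes, edgeR's quasi-likelihood test called 52 genes with all 4 libraries, 51 with DESeq2 size factors, 67 with upper-quartile scaling, 66 with at least 50 counts in 2 libraries, 30 without a filter and 859 by DESeq2. Leaving out single libraries gave 0 to 921. Those counts were 401 without WT 1, 921 without WT 2, 0 without wh7 1 (736 at an unadjusted p under 0.05) and 0 without wh7 2 (811). The lone library left in a genotype is then assumed to vary like the other genotype. The labels number the replicates but tie no number to a shared animal or batch, and the within-genotype differences of equal numbers correlated at -0.24 across 9380 genes. With the replicate block 0 genes were called, 1091 at an unadjusted p under 0.05, and the crossed pairing, added after seeing the data, called 99.

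Of 100 member values over 10 other settings, 8 had the opposite sign. Among the settings that kept all 4 libraries, members passed the threshold only by DESeq2. These were Npc2e and Npc2f, against 7.96% of all genes tested (859 of 10795). The sign turned for Npc1a (0.00046), Npc1b (0.79), Npc2a (0.25) and Npc2d (-0.16) without WT 2, for Npc1b (0.07) and Npc2a (0.03) without wh7 2, for Npc2c (0.49) without WT 1, for Npc1b (0.076) with the replicate block, and for Npc2e (0.021) when summed with its antisense gene, a setting added after seeing the data. The cause was not tested. That sum is made mostly of antisense counts. Leaving out single libraries gave -0.38 to 0.00046 for Npc1a, -0.63 to 0.79 for Npc1b, -0.34 to 0.25 for Npc2a, -3.92 to 0.49 for Npc2c and -0.16 to 0.43 for Npc2d. Npc2f kept its sign in all 10, with log2 fold changes of 0.60 to 0.80 and adjusted p from 0.00566 to 0.841. Npc2b, Npc2e, Npc2g and Npc2h kept theirs too, at -0.56 to -0.14, -1.95 to -0.90, -1.44 to -0.24 and -1.23 to -0.42. The family median ran from -0.36 to -0.20 as single libraries were left out and was -0.27 with the block. With 2 libraries a genotype, the spread between libraries and not counting depth limits these values.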

Other observations

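Genes whose profile over the 4 libraries was nearest to Npc1b and Npc2c, the members with wide spreads, were looked up after their values had been seen. Likeness was the root mean square distance of centred log2 (CPM + 0.1) over 4 libraries, among 9380 genes, and nothing about shared function or control follows from it. Nearest to Npc1b was CG17754, with 27.1 CPM in WT 1, 70.4 in WT 2, 48.8 in wh7 1 and 42.6 in wh7 2 (distance 0.0469). The third nearest, CtsF, which encodes the lysosomal protease cathepsin F, had 254, 630, 423 and 376 CPM. Both share with Npc1b the order WT 1, wh7 2, wh7 1, WT 2 from low to high.

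For Npc2c no gene was that close. The nearest, asRNA:CR45485, stood at a distance of 0.51 and under 2 CPM in each library. Among its 10 nearest genes the more abundant were CG4830, with 150 CPM in WT 1, 44.2 in WT 2, 23.5 in wh7 1 and 80.7 in wh7 2, and CG34316, with 64.7, 17.3, 10.5 and 55.5 CPM. Both had their lowest level in wh7 1 and their highest in WT 1, like Npc2c.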
